A study of Apis cerana with 76 samples.

Results

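miR-275 and miR-305 are insect microRNAs (miRNAs) whose genes lie side by side in the genomes of flies and mosquitoes. They were followed here through the life stages and organs of the Asian honey bee, Apis cerana. Every entry of the authors' 2 count sheets named miR-275 or miR-305, of either strand, was taken. This gave 3 of 146 entries in the stage sheet (miR-275-3p, miR-275-5p and miR-305-5p) and 2 of 171 entries in the organ sheet (miR-275-3p and miR-305-5p). The other strand of miR-305, and miR-275-5p in organs, were not analysed here. All 5 entries had counts above 0 in every column and passed the filter on low counts.

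The study sequenced small RNAs of wild-type bees in 76 libraries. The stage series had 54 libraries, 3 for each of 18 groups: egg (E), larvae L1 to L5, white eye (W), red eye (R), dark red eye (DR) and dark red eye and body (DRB) pupae, nurses, which are young adult workers (YA), foragers, which are old adult workers (OA), drones as adults (D), larvae of queens (QL), pupae of queens at the white, red and dark red eye stages (QW, QR, QDR) and queens as adults (QA). The organ series had 22 libraries, 2 for each of 11 groups: drone testis, mucus gland, brain, ventriculus (the midgut) and rectum, queen ovary, and worker ovary, brain, ventriculus, rectum and venom gland. Castes are not labelled for plain larvae and pupae, nor is the number of bees per library. The meaning of the stage codes comes from the authors' own headings. The authors summarised the libraries of each group in 1 column of counts, and whether as a sum or a mean is not given in the sources used here, so no replicate error can be attached to a level. Levels are CPM, that is counts scaled to a common library size, with TMM scaling (edgeR's trimmed mean method), and 95% intervals cover counting error only.

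The stage columns held between 72873 (QA) and 19772824 (DRB) counts, and E, QL, QW, QR and QA each held under 1000000. The organ columns held between 184457 and 8476499 counts, with the fewest in the rectum of workers. The organ labels were checked against miRNAs that mark tissues. The brain miRNAs miR-124-5p, miR-2796-3p, miR-929-3p and miR-932-5p summed to 40523 CPM in drone and 48304 CPM in worker brain, against 72.7 to 991 CPM in the other 9 columns. Nearly all of this was miR-2796-3p (39507 and 47577 CPM), and miR-932-5p was higher in worker ovary (207 CPM) than in worker brain (174 CPM). The ovarian miR-989-3p was highest in worker and queen ovary (20865 and 8695 CPM), and the gut miR-281-5p in worker and drone ventriculus (8786 and 6698 CPM). The muscle miRNAs went different ways: miR-1-3p ran from 5471 CPM in testis to 427726 CPM in mucus gland and was also high in venom gland and rectum, whereas miR-133-3p was highest in testis (11772 CPM) and drone brain (7273 CPM) and had 722 and 1330 CPM in worker and drone rectum. Their part in the values below was not tested.

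A miRNA is cut as a short duplex from a hairpin, and usually one strand of the duplex is kept and guides silencing of mRNAs that match its seed, bases 2 to 8. In the mosquito Aedes aegypti, miR-275 is needed for digestion of the blood meal and for egg development. In the gut of Drosophila, miR-305 acts on intestinal stem cells through insulin and Notch signalling.

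The mature sequences as the authors' sheets list them are shown here because the seed decides which other miRNAs in the sheets could share their targets; capitals mark the seed.
miR-275-3p, stage sheet: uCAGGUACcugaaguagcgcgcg
miR-275-5p, stage sheet: cGCGUUACucggguacuuuaggcu
miR-305-5p, stage sheet: aUUGUACUucaucaggugcucugg
miR-306-5p, stage sheet: uCAGGUACugagugacucugaga
The seed of miR-275-3p was shared by 1 other name in the sheets, miR-306-5p, a miRNA that lies in the miR-9 cluster of Drosophila. The first 8 bases of miR-275-3p and miR-306-5p were identical. The seeds of miR-275-5p and miR-305-5p were shared by 0 other names. Within the cluster, bases 10 to 16 of miR-275-3p were complementary to bases 5 to 11 of miR-305-5p, a run of 7, and bases 1 to 6 of miR-275-3p were identical to bases 12 to 17 of miR-305-5p. An identical run of 6 also joined miR-275-5p and miR-305-5p, and the strands of miR-275 shared runs of 5; how often unrelated miRNAs share such runs was not tested. The organ sheet listed the same molecules 1 base shorter for miR-275-3p (22 bases) and 3 bases shorter for miR-305-5p (21 bases), so levels are not compared between the sheets.

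miR-275-3p, the more abundant strand, was high in late larvae and low in adults. Its level was 4206 CPM in egg, and 12169, 19245, 13019, 37190 and 33467 CPM in L1, L2, L3, L4 and L5. In pupae it was 17645 CPM in W, 16119 CPM in R, 8752 CPM in DR and 3596 CPM in DRB. Each pupal column was lower than the one before it. Adult workers had 3472 CPM in YA and 911 CPM in OA, and adult drones 1276 CPM. The queen series stood at 17300 CPM in QL, 26948 CPM in QW, 25523 CPM in QR, 25304 CPM in QDR and 5261 CPM in QA. With TMM the highest level, in L4, was 40.8 times the lowest, in OA. With the other scalings L5 was highest (32423 and 31458 CPM with DESeq2 size factors and library totals), and with library totals D was lowest (1296 CPM). By rank miR-275-3p was the fifth most counted entry in L4 and L5, where it made up 2.92% and 3.15% of all miRNA counts, and number 30 of 146 in drones (0.130%).

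miR-305-5p covered a narrower range and was less abundant than miR-275-3p in every column. It had 960 CPM in egg, and 1865, 1329, 2421, 1389 and 1769 CPM in L1 to L5. Pupae had 1776 CPM in W, 1645 CPM in R, 458 CPM in DR and 370 CPM in DRB, so that the step between R and DR was the largest within pupae. Adults had 239 CPM in YA, 184 CPM in OA and 299 CPM in D. Queen larvae were the highest of the 18 columns at 3444 CPM, followed by 1813 CPM in QW, 2018 CPM in QR, 1004 CPM in QDR and 516 CPM in QA. The highest level was 18.8 times the lowest. miR-275-5p, the less abundant strand of miR-275, ran from 71.6 CPM in D to 3961 CPM in QW. It lay between 2042 and 2985 CPM in the 5 larval columns, and had 1751, 1220, 522 and 110 CPM in W, R, DR and DRB, 403 and 99.3 CPM in YA and OA, and 156 CPM in egg. The lowest counts behind these levels were 14 for miR-275-5p and 41 for miR-305-5p in QA, with intervals of 96.3 to 296 CPM and 370 to 700 CPM.

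**Figure D1:**
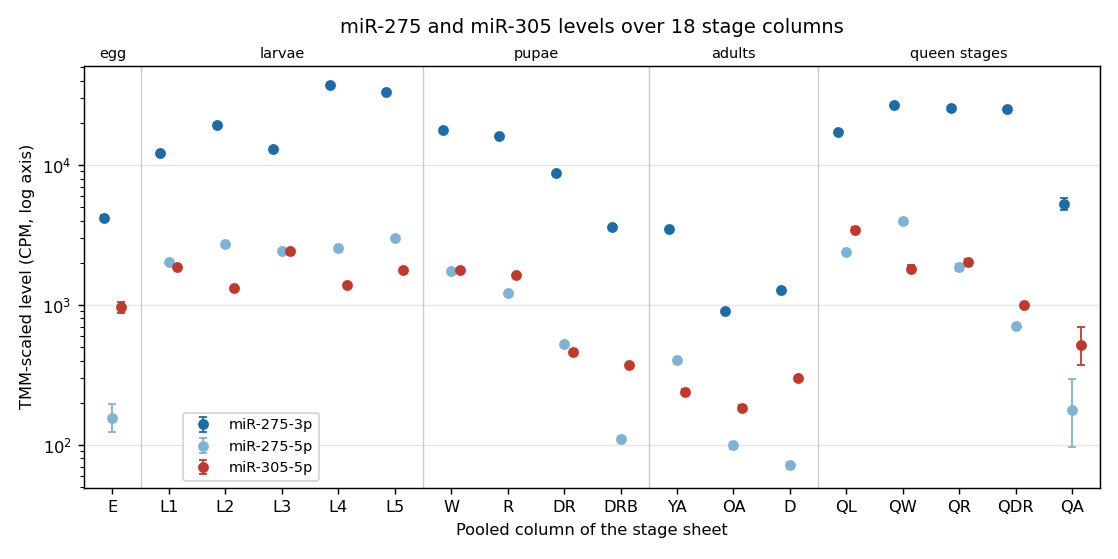
TMM-scaled level (CPM, log axis) of miR-275-3p, miR-275-5p and miR-305-5p in each of the 18 pooled stage columns; bars are exact Poisson 95% intervals, which cover counting error only. All 3 entries are lower in DRB than in W, and miR-275-3p has 25304 CPM in the QDR column of queen pupae with this scaling.

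When columns were put in order of level, most neighbours differed by more than counting error. The intervals overlapped for 2 of 17 neighbouring pairs for miR-275-3p (QR with QDR, and W with QL), for 3 of 17 for miR-275-5p (L3 with QL, QR with W, and QA with E) and for 6 of 17 for miR-305-5p. The 6 were L1 with QW, QW with W, W with L5, L4 with L2, QDR with E, and QA with DR. No spread between libraries is known for any of them.

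The first comparison was of larvae with egg. miR-275-5p averaged 2551 CPM over 5 larval columns and 156 CPM in egg, a log2 ratio of 4.01, and miR-275-3p averaged 23018 and 4206 CPM, a log2 ratio of 2.30. For both, every larval column lay above egg. miR-305-5p averaged 1754 CPM in larvae and 960 CPM in egg (log2 ratio 0.83), but with library totals in place of TMM its log2 ratio was -0.35. Of all 145 entries, 32.4% were at least 2-fold higher in larvae. Egg had 1 column, so the difference was not tested.

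Pupae were then compared with larvae. The log2 change was -0.998 (SE 0.53) for miR-275-3p, -1.50 (SE 0.70) for miR-275-5p and -0.72 (SE 0.49) for miR-305-5p, against a median of -0.15 over all 145 entries. The call was missed by all 3 in edgeR's quasi-likelihood test at an adjusted p of 0.05, with adjusted p of 0.148, 0.102 and 0.258, whereas 40% of all entries passed. The pupal and larval levels of miR-275-3p and miR-305-5p overlapped. Those of miR-275-5p did not overlap with TMM, a pattern that 19.3% of entries shared in this direction, but they overlapped when scaled by DESeq2 size factors or library totals. Without the W column miR-275-5p had an adjusted p of 0.0496, where 40.7% of entries passed; it was the lowest of 15 alternatives that ran up to 0.385.

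The next comparison was of the adult worker columns with pupae. miR-275-3p was at 3472 and 911 CPM in YA and OA, against 3596 to 17645 CPM over the 4 pupal columns, and miR-305-5p at 239 and 184 CPM, against 370 to 1776 CPM. Neither overlapped with TMM or library totals, and 24.1% of all entries lay lower without overlap; with DESeq2 size factors miR-275-3p overlapped. The log2 changes were -2.39 (SE 0.76, adjusted p 0.0619) for miR-275-3p, -2.33 (SE 0.71, adjusted p 0.0510) for miR-305-5p and -1.84 (SE 0.96, adjusted p 0.177) for miR-275-5p, against a median of -0.41 over 145 entries. These miss the threshold in edgeR, where 7.59% of entries passed. With the DESeq2 test miR-275-3p and miR-305-5p passed, at adjusted p of 0.0200 and 0.0184, and 20% of entries did; DESeq2's size factors moved the median change of all entries by 0.35. The calls turned on single columns. miR-275-3p passed without YA (0.0129) or without DRB (0.0177), and miR-305-5p without DR (0.0436) or DRB (0.0153). Of all entries, 26.9% passed without YA, 21.5% without DRB and 4.83% without DR. Over 12 alternatives the adjusted p ran up to 0.421 for miR-275-3p and 0.391 for miR-305-5p. RNA was drawn from many cells at once in every column, so fewer cells that make a miRNA and less of it per cell cannot be told apart.

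Queen pupae were set against plain pupae of the same eye colour. miR-275-3p was higher in queen pupae in 3 of 3 pairs: 26948 against 17645 CPM in QW and W, 25523 against 16119 CPM in QR and R, and 25304 against 8752 CPM in QDR and DR. With TMM the levels in the 3 queen pupal columns differed by 1.06-fold in all. With DESeq2 size factors QW, QR and QDR had 30537, 29983 and 22092 CPM, and with library totals 27757, 24850 and 22221 CPM. miR-275-5p was also higher in 3 of 3 pairs. The share of all entries higher in 3 of 3 pairs was not counted. miR-305-5p was at 1004 CPM in QDR against 458 CPM in DR, while QW and W (1813 and 1776 CPM) differed by less than counting error and changed order with library totals. The log2 changes were 0.76 (SE 0.23, adjusted p 0.227) for miR-275-3p, 0.57 (SE 0.30, adjusted p 0.331) for miR-275-5p and 0.31 (SE 0.31, adjusted p 0.546) for miR-305-5p, against a median of -0.26 over 137 entries. edgeR called 0.0% of entries here (27 had an unadjusted p under 0.05), whereas DESeq2 called 5, or 3.65%. Leaving out any column here takes its eye colour out of the comparison and leaves 1 residual degree of freedom. Without the dark red pair (by dropping QDR or DR) miR-275-3p had adjusted p of 4.48e-05 and 2.02e-05 and miR-275-5p 0.000240 and 0.000257, in fits where 46% of all entries passed. Without W miR-275-3p had 0.0197, where 2.9% passed, and without QW, which removes the same pair, 0.0641. Over 10 alternatives the adjusted p reached 0.824 for miR-275-3p and 0.986 for miR-275-5p. QW and QR were shallow, with 647990 and 690134 counts against 12892976 in QDR and 6936161 to 14821852 in W, R and DR; the part of depth in the result was not tested.

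Queen larvae, with 1 column and no larval number, had 3444 CPM of miR-305-5p against 1329 to 2421 CPM in the 5 plain larval columns. The log2 ratio was 1.01, and 10.3% of all entries were at least 2-fold higher in queen larvae. For miR-275-3p and miR-275-5p queen larvae lay within the larval range, except that with DESeq2 size factors miR-275-5p of queen larvae was 2897 CPM against at most 2892 CPM in larvae. Adult drones had 299 CPM of miR-305-5p against 239 and 184 CPM in YA and OA, and 71.6 CPM of miR-275-5p against 403 and 99.3 CPM in YA and OA, with log2 ratios of 0.51 and -1.47. Of all entries 25.5% were at least 2-fold higher in drones and 13.1% at least 2-fold lower. Their miR-275-3p, 1276 CPM, lay between the levels of the adult workers with TMM, but with library totals it was 1296 CPM against 3617 and 1770 CPM in YA and OA. With library totals miR-305-5p of drones, 303 CPM, lay between YA and OA (249 and 356 CPM). These comparisons had 1 column on a side and were not tested.

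The strands and the cluster partners were compared within a column, where scaling plays no part. miR-275-3p was the major strand in all 18 stage columns. The minor strand, miR-275-5p, made up 14.4%, 12.5%, 15.7%, 6.42% and 8.19% of the counts of both strands in L1 to L5. In W, R, DR and DRB it made up 9.03%, 7.04%, 5.63% and 2.96%, each lower than the one before. Queen pupae ran the same way, with 12.8% in QW, 6.80% in QR and 2.70% in QDR. The share was 10.4% in YA and 9.83% in OA, 5.32% in drones, 12.1% in queen larvae, 3.24% in QA (95% interval by Clopper-Pearson 1.78% to 5.38%) and 3.58% in egg (2.85% to 4.44%). Between the stage with the highest share (L3) and that with the lowest (QDR), the ratio of the strands differed 6.73-fold.

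The ratio of miR-275-3p to miR-305-5p was not constant across stages either. It was 4.38 in egg, 6.52, 14.5, 5.38, 26.8 and 18.9 in L1 to L5, and 9.93, 9.80, 19.1 and 9.71 in W, R, DR and DRB. In adults it was 14.5 in YA, 4.96 in OA and 4.27 in D. In queens it was 5.02 in QL, 14.9 in QW, 12.6 in QR, 25.2 in QDR and 10.2 in QA. L4 and QDR were highest, and drones, egg, OA and queen larvae lowest. The DR column, with 117969 counts of miR-275-3p and 6179 of miR-305-5p, stood apart from the other 3 pupal columns, which lay within 9.71 to 9.93.

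**Figure D2:**
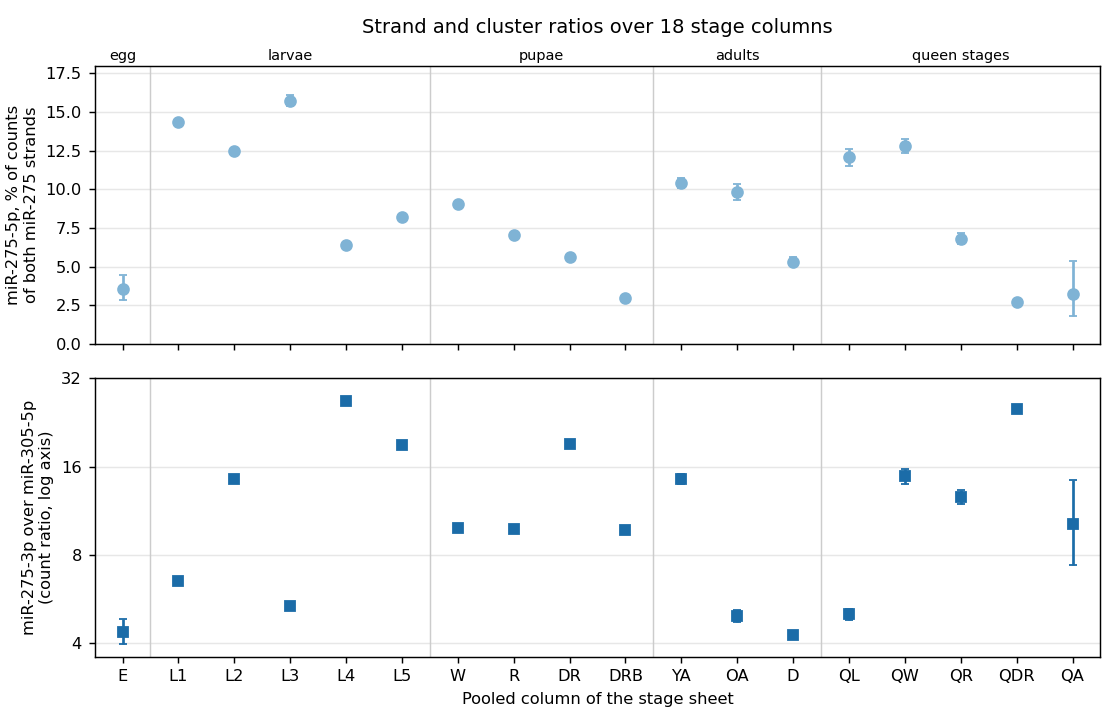
Top, miR-275-5p as a percent of the counts of both miR-275 strands; bottom, count ratio of miR-275-3p to miR-305-5p on a log axis, in the 18 pooled stage columns. Bars are exact binomial 95% intervals, for counting error only. The minor strand falls off over W to DRB (9.03% to 2.96%) and over QW to QDR (12.8% to 2.70%), and the cluster ratio lies between 4.27 and 26.8.

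miR-306-5p, which shares the seed of miR-275-3p, was described beside it after its values were seen. It was high where miR-275-3p was low at the start of life. miR-306-5p had 48751 CPM in egg and 47159, 24859, 37031, 12030 and 10155 CPM in L1 to L5. It made up 92.1% of the counts of the shared seed in egg, 79.5%, 56.4% and 74.0% in L1, L2 and L3, and 24.4% and 23.3% in L4 and L5. In W, R, DR and DRB its share was 27.4%, 29.5%, 38.7% and 57.5%, and in QW, QR and QDR 24.98%, 27.6% and 15.6%. Adults leaned to miR-306-5p again, with 59.2% in YA, 92.0% in OA and 91.0% in drones, against 53.3% in QA. With TMM the summed level of the seed ran from 8461 to 59327 CPM over stages, 7.01-fold. Alone, miR-275-3p varied 40.8-fold and miR-306-5p 10.4-fold. With library totals the sum ran from 8857 CPM in YA to 91534 CPM in egg. Over organs, with TMM, the sum varied 9.05-fold, miR-275-3p 13.9-fold and miR-306-5p 7.87-fold. In pupae against larvae miR-306-5p fell, with a log2 change of -2.14 (SE 0.49, edgeR adjusted p 0.00490), and it was called under all 3 scalings. In adult workers against pupae its log2 change was 0.38 (SE 0.58, adjusted p 0.624).

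**Figure D3:**
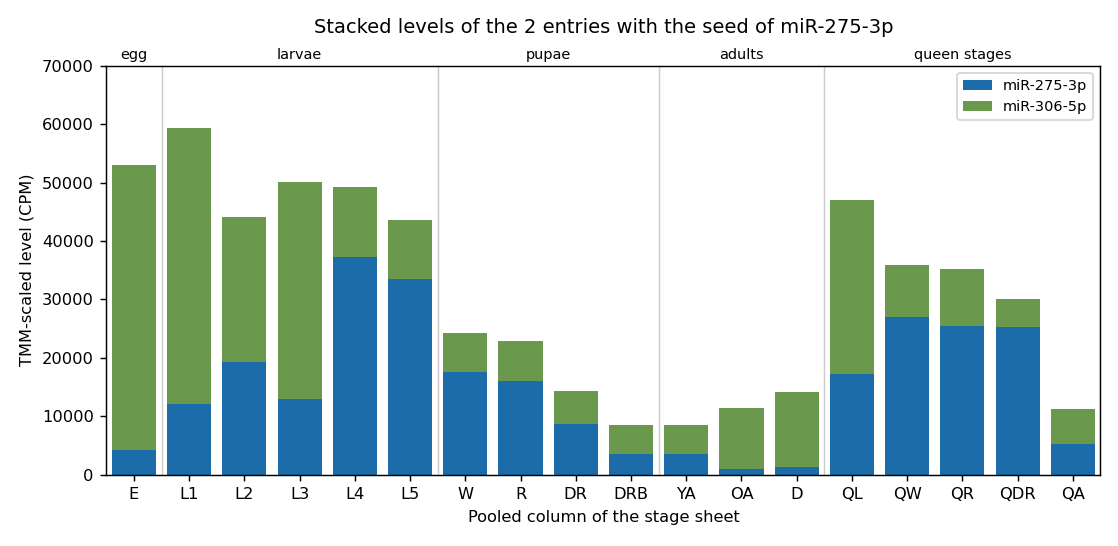
Stacked TMM-scaled levels (CPM) of miR-275-3p and miR-306-5p, the entries that share the seed of miR-275-3p, in the 18 pooled stage columns. miR-306-5p makes up 92.1% of the pair in egg and 23.3% in L5, and 92.0% in OA.

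Among organs miR-275-3p was highest in drone testis, at 34039 CPM, and next in queen ovary, at 26023 CPM, under each of 3 scalings. Worker ovary had 11786 CPM, below drone rectum at 12598 CPM and close to drone ventriculus at 11345 CPM. The place of worker ovary changed with the scaling, since it stood above drone rectum with library totals (18311 and 13508 CPM) and below drone ventriculus with DESeq2 size factors (9103 and 10856 CPM). Worker ventriculus had 8181 CPM and worker rectum 4703 CPM. Venom gland had 8010 CPM and mucus gland 4504 CPM, and the brain 5135 CPM in drones and 2442 CPM in workers, the lowest of the 11. In testis miR-275-3p made up 5.13% of all miRNA counts and ranked sixth of 171 entries. The highest level was 13.9 times the lowest.

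miR-305-5p was highest in the ovaries, at 2595 CPM in queen and 2345 CPM in worker ovary, followed by testis at 1562 CPM. DESeq2 size factors kept this order, but with library totals worker ovary (3643 CPM) came first and testis (2353 CPM) stood above queen ovary (1959 CPM). Drone and worker ventriculus had 1121 and 928 CPM, and drone and worker brain 317 and 749 CPM. Rectum had 329 CPM in drones and 388 CPM in workers, mucus gland 347 CPM and venom gland 306 CPM. The 5 columns from worker rectum down to venom gland formed a chain in which each pair of neighbours overlapped within counting error (106 to 3243 counts). For miR-275-3p 2 of 10 neighbouring pairs overlapped, worker ventriculus with venom gland and worker rectum with mucus gland.

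**Figure D4:**
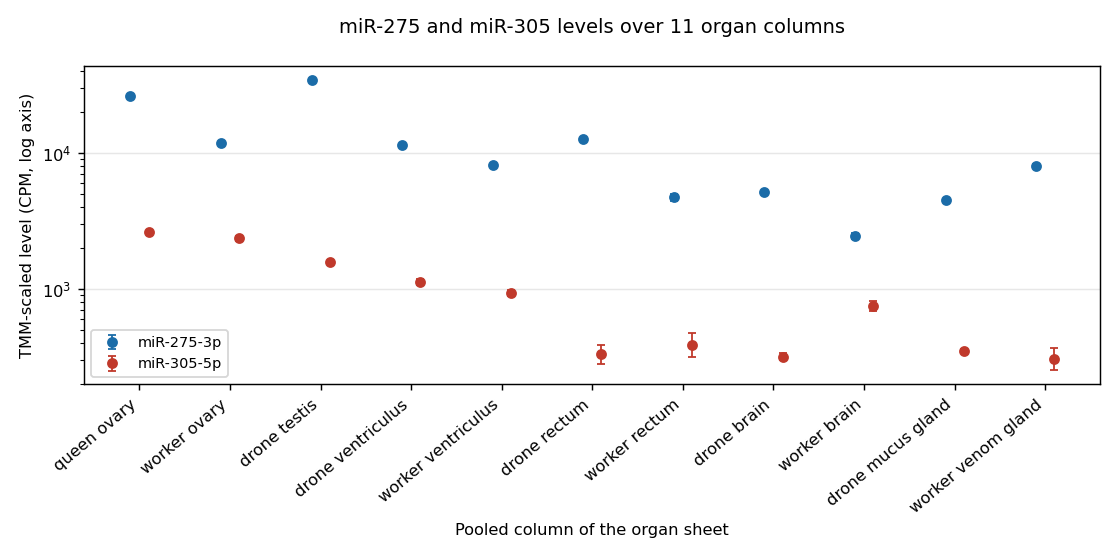
TMM-scaled level (CPM, log axis) of miR-275-3p and miR-305-5p in the 11 pooled organ columns; bars are exact Poisson 95% intervals, for counting error only. With this scaling miR-305-5p is highest in queen and worker ovary (2595 and 2345 CPM) and miR-275-3p in drone testis (34039 CPM); with library totals miR-305-5p in testis lies above queen ovary.

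Brain was set against gut, here the ventriculus and rectum. miR-275-3p was lower in brain, with a log2 change of -1.81 (SE 0.30, edgeR adjusted p 0.0245), and was lower in brain than in either gut organ in drones as well as in workers. This was the one comparison of 7 in which an entry of the cluster passed; 23.0% of all 135 entries passed it. miR-305-5p had a log2 change of -0.79 (SE 0.50, adjusted p 0.292), and worker brain, at 749 CPM, lay above both rectum columns. The median over all entries was -0.18. With no filter on low counts the TMM factors are those of the CPM levels, and log2 changes moved by a median of 0.51. With TMM the drone brain level of miR-275-3p, 5135 CPM, lay above that of worker rectum, 4703 CPM, and with the other scalings brain and gut did not overlap; 9.63% of entries lay lower in brain without overlap under TMM. The call ended with DESeq2 size factors (log2 change -1.34, adjusted p 0.0605), which moved the median of all entries by 0.47, with no filter on low counts (-1.30, 0.0530) and without drone brain (0.131), worker brain (0.190), drone rectum (0.104) or worker rectum (0.0700). Those fits left 1 residual degree of freedom; over all entries edgeR called 0 without drone brain or without worker brain (39 and 35 had an unadjusted p under 0.05; DESeq2 was not run there), 3 without drone rectum and 9 without worker rectum. Over 10 alternatives the log2 change was -1.99 to -1.30 and the adjusted p 0.00558 to 0.190.

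Ovary was set against the same gut columns, with the gut taken at its worker level because the model has a term for drones. Queen and worker ovary were each a class of their own, so the difference between them adds nothing to the SE. miR-305-5p was higher in both ovary columns than in all 4 gut columns under each of 3 scalings, as were 24.4% of all entries with TMM. Its log2 change was 1.10 (SE 0.54, edgeR adjusted p 0.232), and that of miR-275-3p 0.79 (SE 0.30, adjusted p 0.140), against a median of 0.20 over 135 entries, of which 19.3% passed. Neither passed, and here the choice of scaling mattered. With library totals, which moved the median of all entries by 0.67, miR-275-3p had a log2 change of 1.47 (adjusted p 0.0295; 25.2% of entries passed). With no filter on low counts, which moved the median of all entries by 0.71, miR-275-3p had 1.50 (0.0469, 18.7% passed). With the DESeq2 test it had 1.08 (0.0465, 43.7% passed), and miR-305-5p had 1.40 (0.0496). miR-275-3p also passed without worker ovary (1.59, 0.0464) and without worker ventriculus (1.12, 0.0493), where 28.8% and 37.6% of entries passed, but without queen ovary its log2 change was 0.043 (adjusted p near 1). Over the alternatives the adjusted p of miR-305-5p reached 0.565. The ovarian marker miR-989-3p was at 8695 CPM in queen and 20865 CPM in worker ovary, in the opposite order to miR-275-3p. A single entry, miR-1175-3p, took 28.9% of the counts in queen ovary and had 0 counts in worker ovary; its part in the scaling of these columns was not tested.

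Within the gut, miR-305-5p was higher in ventriculus than in rectum in drones (1121 and 329 CPM) and in workers (928 and 388 CPM), with a log2 change of 1.10 (SE 0.56, edgeR adjusted p 0.321); 4.44% of entries passed. miR-275-3p had -0.12 (SE 0.32, adjusted p 0.855). Its sign changed with DESeq2 size factors (0.075) and with no filter (0.33), where the TMM factors are those of the CPM levels. Drone organs were set against worker organs over brain, ventriculus and rectum. miR-275-3p was higher in drones in 3 of 3 organs under each of 3 scalings, with a log2 change of 1.21 (SE 0.26, edgeR adjusted p 0.190). miR-305-5p had -0.18 (SE 0.46, adjusted p 0.880). The share of all entries higher in drones in 3 of 3 organs was not counted. edgeR called 0.0% of entries there (11 had an unadjusted p under 0.05), whereas DESeq2 called 3, or 2.22%.

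**Figure D5:**
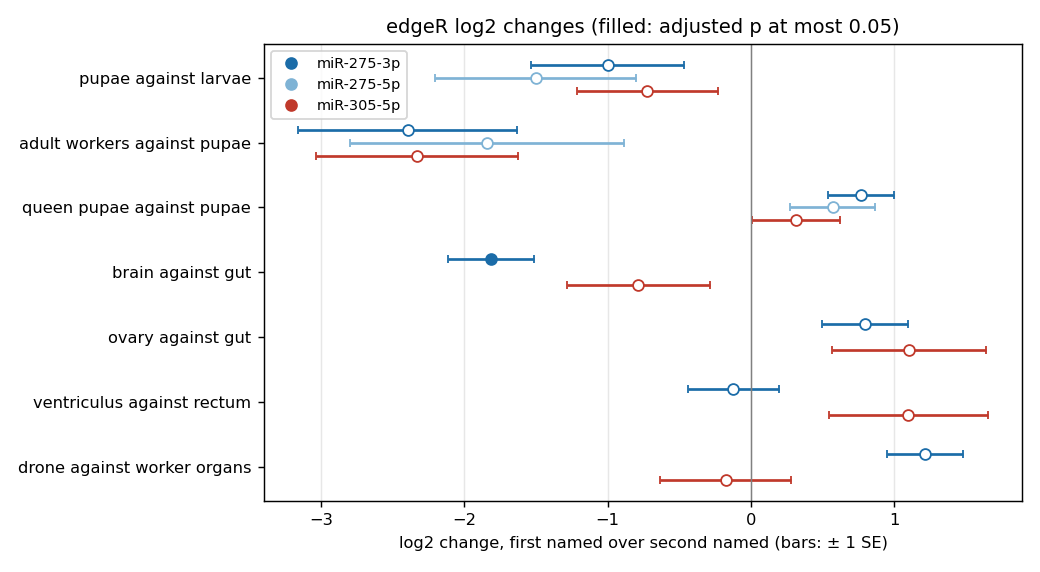
edgeR log2 changes (first named over second named) with 1 SE on each side for the entries of the cluster in the 7 tested comparisons; filled points have an adjusted p of at most 0.05. The filled point is miR-275-3p in brain against gut, at -1.81.

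The ratio of miR-275-3p to miR-305-5p spanned 11.7-fold over organ columns and 6.27-fold over stage columns. It was 38.3 in drone rectum and 12.1 in worker rectum, and 16.2 in drone brain and 3.26 in worker brain. It was 10.1 and 8.81 in drone and worker ventriculus, 21.8 in testis, 13.0 in mucus gland and 26.2 in venom gland. Queen and worker ovary had 10.03 and 5.03. In each of the 3 organs sampled in both, the ratio was higher in drones than in workers. The testis was also set against the other 4 drone organs: miR-275-3p had 34039 CPM in testis against 4504 to 12598 CPM (log2 ratio 2.17), and miR-305-5p 1562 CPM against 317 to 1121 CPM (1.80). Of all entries 32.6% were at least 2-fold higher in testis, which had 1 column, so this was not tested. The share of miR-306-5p in the shared seed was lowest in testis (10.3%), drone rectum (11.8%) and queen ovary (14.8%) and highest in worker ovary (52.9%).

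Across the 18 stage columns, the entry most like miR-275-3p was its own minor strand, with a Spearman rho of 0.86 on log2(CPM + 1), first of 85 entries with a mean of at least 50 CPM. The next were miR-2765-5p (0.81), miR-100-5p (0.79), miR-11-3p (0.74) and miR-6001-3p (0.73). The cluster partner miR-305-5p came number 10 (0.67), against a median of 0.04 over the 85, with a Pearson's r of 0.84. miR-305-5p was most like miR-8-3p (0.85), then miR-275-5p (0.76), miR-965-5p (0.72), miR-100-5p (0.71) and miR-2765-5p (0.70), with miR-275-3p sixth. This order depended on the scaling: with library totals miR-10a-5p came first (0.82) and miR-8-3p had 0.72, at rank 9. miR-275-5p was followed after miR-275-3p by miR-8-3p (0.83), miR-184-3p (0.77), miR-305-5p (0.76) and miR-9226 (0.75); with library totals miR-184-3p had 0.46, at rank 16. miR-306-5p, with the shared seed, had a rho of 0.02 with miR-275-3p.

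Across the 11 organ columns the partners had a rho of 0.55, which ranked miR-305-5p number 13 of 97 entries for miR-275-3p. With 1 column left out it lay between 0.42 (without queen ovary) and 0.73, against 0.61 to 0.73 over stages. The entries most like miR-275-3p were miR-6000-5p (0.83), miR-279c-3p (0.80), miR-279b-3p (0.75), miR-1175-3p (0.73, with 0 or 1 count in 8 of the columns) and miR-3715-5p (0.70); with library totals miR-279c-3p had 0.58, at rank 15. miR-305-5p was most like miR-965-5p (0.84), which was also among its 5 nearest over stages, then miR-306-5p and miR-33-5p (0.71 each), miR-92c-3p (0.70) and the ovarian miR-989-3p (0.69). These values describe pooled columns that share a scaling and 1 set of totals within a sheet.

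Other miRNAs linked to the gut or to nutrients were counted beside the cluster. The list held miR-281, miR-750, miR-1175, miR-31a, miR-8, miR-14, miR-33, miR-277, miR-278 and miR-375, with 12 entries in the stage sheet and 9 in the organ sheet. It was chosen with earlier results of these data known, so its counts are description only. In pupae against larvae 9 of 12 fell and 0 rose in edgeR, where 22.1% of all entries fell, with a median log2 change of -1.86 against -0.15 over all entries. The largest falls were those of miR-750-3p (-4.00, SE 0.66, adjusted p 0.000756), the gut miRNA miR-281-3p (-3.24), miR-375-3p (-2.75) and miR-33-3p (-2.50). With DESeq2 size factors 8 of the list and 26 of all 145 entries fell, and with library totals 7 and 18. In adult workers against pupae 3 of 12 rose, miR-277-3p (3.65), miR-375-3p (2.62) and miR-14-3p (1.74), and 1 fell, miR-8-3p (-1.53), a miRNA that acts in the fat body of flies. Of all entries 4.83% rose and 2.76% fell. The median was 1.13 against -0.41 over all entries. With DESeq2 size factors or library totals 0 of the list fell, where 2 and 4 of all 145 entries did. In queen pupae against pupae 0 of 12 passed, as did 0 of all 137 entries, with a median of -0.04 against -0.26 over all entries.

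Entries listed for a link to the gut can be lower outside the gut by that choice alone, so the organ counts are no independent result. In brain against gut 4 of 9 list entries fell, where 9.63% of all entries fell. The list's median log2 change was -2.57 against -0.18 over all entries. The 4 were miR-750-3p (-6.55, SE 0.24, edgeR adjusted p 0.00173), miR-281-5p (-5.09), miR-31a-5p (-3.69) and miR-1175-3p. The call of miR-1175-3p (adjusted p 0.0373) rests on 287 counts in drone ventriculus, since it had 0 counts in both brain columns and both worker gut columns and 1 in drone rectum, and no fold is given for it. Without it the list's median was -2.08. In ovary against gut 4 of 9 fell and 0 rose, where 8.89% of all entries fell, with a median of -3.11 against 0.20; miR-750-3p (-5.39), miR-281-5p (-4.05), miR-31a-5p (-3.40) and miR-8-3p (-1.64) passed. The fit of miR-1175-3p failed in this comparison, and without it the median was -3.26. With DESeq2 size factors 2 of the list and 8 of all 135 entries fell there, and with library totals 3 and 10. The log2 changes of miR-275-3p and miR-305-5p, 0.79 and 1.10, had the other sign. Within the gut miR-31a-5p fell in ventriculus against rectum (-5.61) and miR-750-3p rose (4.97), where 2.22% of all entries went each way. In drone against worker organs 0 of 9 passed, as did 0 of all 135 entries, with a median of 0.10 against 0.17 over all entries.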

How the data were processed

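Per the submitters' processing notes, bcl2fastq and kallisto were used, without versions; trimming, counting settings and a genome build are not given in the sources used here. The deposited sheets hold miRNA read counts that the authors pooled to 1 column per group. How libraries were combined is not given. The 12 value columns of the read-statistics sheets were not used, because their library names match no labelled sample. Mature sequences are those of the count sheets.

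With edgeR 4.0.16 under R 4.3.3, whole sheets were TMM-scaled and given two-sided quasi-likelihood tests, after filterByExpr with a minimum count of 10 and with Benjamini-Hochberg adjustment at 0.05 over all entries tested. All 18 stage columns entered a model of class means, with 10 residual degrees of freedom, for the larval, pupal and adult worker contrasts. The queen pupae contrast used 6 columns with eye colour as a term. All 11 organ columns entered a model of organ class plus drone origin, with queen and worker ovary as separate classes. These last models each left 2 residual degrees of freedom. Columns are the units, so p-values measure the spread between pooled columns, not between bees, and a class of a single column is assumed to vary like the others. Levels use TMM factors from all entries of a sheet, whereas each test recomputed them after the filter. Organ log2 changes therefore do not follow exactly from the CPM beside them. With no filter they moved by a median of 0.51 in brain against gut and 0.71 in ovary against gut. The median move was 0.45 in ventriculus against rectum and -0.22 in drone against worker organs. Fold changes with a lone column are differences of mean log2(CPM + 1). Alternatives were DESeq2 size factors, library totals, no filter, the DESeq2 1.42.0 test, other sets of columns and each compared column left out. Named miRNAs were the cluster's entries, the 5 most like each, and up to 4 called list members by size. Tests were also run on simulated counts with planted changes and a fixed spread, which does not show how they perform on these columns. The miRNA miR-306-5p was chosen after its values were seen. Entries sharing a name (miR-2a-3-5p, miR-6058) were kept apart. The members and lists were chosen with earlier results of these data known, so they support nothing independently.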

Additional observations from a re-analysis of the deposited data

Results flagged for a closer look

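In pupae, the count ratio of miR-275-3p to miR-305-5p was 19.1 in DR. On log2 ratios this was farther from the other 3 pupal columns (9.71 to 9.93) than Dixon's test allows (Q 0.966, critical value 0.829). Of 21 groups of levels or ratios examined this was the 1 flagged, and chance flags about 1 in 20. Dixon's test takes its values as replicates, whereas the pupal columns are different stages. A difference between stages therefore cannot be told from an outlier. QDR, the queen column of the same eye colour, had 25.2, against 14.9 in QW and 12.6 in QR.

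The difference between ventriculus and rectum for miR-275-3p ran in opposite directions in drones (log2 ratio -0.15) and in workers (0.80); with library totals both were below 0 (-0.63 and -0.0048). That between drones and workers for miR-305-5p was -1.24 in brain, 0.27 in ventriculus and -0.24 in rectum. Each value rests on 1 pooled column a side, and neither difference was tested.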

How the results depend on the processing

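No paired analysis was possible because each column combines the libraries of a group and carries no replicate number; columns were matched only by eye colour or organ, as terms of the models. Adult workers against pupae passed with the DESeq2 test at -2.09 for miR-275-3p and -1.98 for miR-305-5p. Brain against gut for miR-275-3p missed at -1.34 with DESeq2 size factors and -1.30 with no filter. Ovary against gut passed for miR-275-3p at 1.47 with library totals, 1.50 with no filter and 1.08 with the DESeq2 test, and for miR-305-5p at 1.40 with the DESeq2 test. Ventriculus against rectum for miR-275-3p changed sign, to 0.075 with DESeq2 size factors, 0.074 in the DESeq2 test and 0.33 with no filter. Drone against worker organs for miR-306-5p changed sign, to -0.14 (DESeq2 size factors) and -0.33 (library totals). In larvae against egg, miR-275-3p had 1.11 with library totals, miR-275-5p 3.38 and 2.83 under DESeq2 size factors and library totals, and miR-305-5p 0.20 and -0.35 with the same scalings. In queen larvae against larvae these scalings gave 0.32 and 0.087 for miR-275-3p and 0.48 and 0.25 for miR-275-5p, and DESeq2 size factors gave 1.58 for miR-305-5p. Drones against adult workers gave 0.026 for miR-305-5p with library totals. The highest level over the lowest was, under DESeq2 size factors and then library totals, 27.0 and 24.3 for miR-275-3p over stages and 9.70 and 26.4 over organs; for miR-305-5p it was 13.4 over stages and 16.8 over organs with library totals. Pearson's r over stages was 0.90 for miR-275-3p with miR-275-5p, 0.84 for it with miR-305-5p (Spearman's rho with library totals 0.75) and 0.86 for miR-275-5p with miR-305-5p.

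Leaving out 1 column at a time gave ranges of -2.05 to -0.96 for miR-275-5p in pupae against larvae, -3.78 to -1.73 for miR-275-3p and -2.67 to -1.96 for miR-305-5p in adult workers against pupae, 0.55 to 1.13 for miR-275-3p and 0.50 to 0.86 for miR-275-5p in queen pupae against pupae, -1.99 to -1.60 for miR-275-3p in brain against gut, 0.043 to 1.59 in ovary against gut and -0.52 to 0.23 in ventriculus against rectum, and -0.54 to 0.22 for miR-305-5p in drone against worker organs. Values that passed in none of these fits also moved: in pupae against larvae -1.28 to -0.49 for miR-275-3p and -1.09 to -0.12 for miR-305-5p, in adult workers against pupae -3.28 to -1.16 for miR-275-5p, in queen pupae against pupae 0.072 to 0.71 for miR-305-5p, and for miR-305-5p -1.34 to -0.23 in brain against gut, 0.68 to 1.41 in ovary against gut and 0.51 to 1.55 in ventriculus against rectum. In other settings 20 values moved past the column spread, 10 changed sign, 6 passed and 2 missed. The other 194 include count ratios with 0.5 added, nearly fixed in advance. No cause was tested.

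Over all entries, adult workers against pupae had 11 calls with edgeR (7 higher, 4 lower), 19 with library totals (15, 4), 12 with DESeq2 size factors (10, 2), 29 with the DESeq2 test and 0 with the compared columns alone (29 at an unadjusted p under 0.05). Pupae against larvae had 26 higher and 32 lower, against 29 and 26 under DESeq2 size factors and 37 and 18 under library totals. Brain against gut had 31 (18 higher, 13 lower), 38 with DESeq2 size factors (28, 10) and 50 with the DESeq2 test. Ovary against gut had 26 (14, 12), 23 with DESeq2 size factors (15, 8), 34 with library totals (24, 10) and 59 with the DESeq2 test. Ventriculus against rectum had 6 (3, 3), 11 with library totals (3, 8) and 41 with the DESeq2 test. Leaving out columns under 1000000 counts and rescaling miR-306-5p and the gut list were added after seeing the data. With 1 column left out, adult workers against pupae had 0 edgeR calls without OA or R (16 and 38 at an unadjusted p under 0.05) and 39 without YA, queen pupae against pupae 0 without QR (5 unadjusted) and 63 without QDR or DR, brain against gut 0 without either brain column (35 to 39 unadjusted) and 55 without worker ventriculus, and ovary against gut 1 without either rectum column and 50 without worker ventriculus. DESeq2 was not run with columns left out. Depth limits miR-275-5p and miR-305-5p most in QA, with 14 and 41 counts.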

Other observations

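The midgut-linked miR-1175-3p, singled out after its values were seen, had 1098142 counts in queen ovary (28.9% of the column) and 111571 in drone testis (2.26%). It had 287 counts in drone ventriculus, 1 each in drone rectum and worker venom gland, and 0 in the other 6 organ columns, worker ventriculus and worker ovary among them. With 1 pooled column per organ, no test of these differences was made.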
